A study of Rattus norvegicus with 15 samples.

Results

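The genes described here make cholesterol in the cell or set how much of it is made. They comprise 27 genes, chosen by name from knowledge of the pathway, with earlier results of these data known. The 20 enzymes lead from acetyl-CoA to cholesterol or branch off on the way. The other 7 are genes of SREBP2 regulation, sterol transport and esterification. Probes were taken where the array's gene name was one of these symbols or, for Msmo1, the older symbol Sc4mol. Of the 27 genes, 25 gave a signal that could be tested (19 enzymes and 6 regulation genes), among 17040 features tested on the array. The other two were too dim. The 1 probe of Lbr, a sterol reductase that is also a receptor for lamin B in the nuclear envelope, was well above background on 3 of 15 arrays, and the 1 probe of Mylip, a ubiquitin ligase induced when sterols are abundant, was well above background on 0.

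Cholesterol synthesis starts in the cytosol with acetyl-CoA, passes through mevalonate and the isoprenoid diphosphates, and reaches squalene, lanosterol and finally cholesterol on the membrane of the endoplasmic reticulum. SREBP2, encoded by Srebf2, is a transcription factor held in that membrane. When membrane cholesterol is low, its escort SCAP carries it to the Golgi, where it is cut and freed to switch on most genes of the pathway, and when cholesterol is plentiful the INSIG proteins hold SCAP back. The liver is a main site of this synthesis, and in liver the end product also leaves as bile acids.

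Female Wistar rats gave hepatocytes that were stained with Hoechst 33342, a DNA dye, and sorted by flow cytometry at 2c, 4c or 8c, where 2c is the DNA of a diploid cell before it replicates. Total RNA of each fraction was labelled with Cy3 and hybridised to rat expression arrays of 1 colour, 1 per fraction in each of 5 independent experiments, which gave 15 arrays and n = 5 per group. The rats were 12, 14, 6, 5 and 6 weeks old in experiments 1 to 5, carried no stated genetic change and received no stated treatment. The sources used here do not say how many rats an experiment held, and do not give the gating of doublets, of replicating cells or of cells that are no hepatocytes. A sort on DNA cannot separate a tetraploid from a diploid that has copied its genome (both 4c), or their counterparts at 8c.

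All levels below are log2 values relative to the 75th percentile of the same array, taken over probes well above background on every array. A level of 0 equals that percentile, and a difference of 1 is a doubling. Levels are shares of an array's RNA: fewer cells of a type and less of an RNA per cell cannot be told apart. Levels of different probes are not compared with each other, except to choose the brightest probe of a gene and the genes named from a list. A gene passed where limma, with the experiment as a block, gave an adjusted p under 0.05 over all 17040 features.

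The 10 hepatocyte markers were all tested, none passed in any comparison, and their list median lay between 6.22 and 6.93 on the 2c arrays, 6.25 and 6.84 on the 4c arrays and 6.23 and 6.89 on the 8c arrays. Markers of other cells differed between the fractions. Of 12 Kupffer cell markers 9 were tested, and 8 of them were lower in 8c than in 2c, with a list median of -4.51 to -0.98 in 2c, -6.08 to -4.40 in 4c and -8.03 to -5.02 in 8c. Of 11 stellate cell markers 9 were tested and 7 were lower in 8c, with list medians of -4.09 to -1.48 in 2c, -6.46 to -4.32 in 4c and -7.22 to -3.88 in 8c. Of 11 sinusoidal endothelial markers 7 were tested and 3 were lower in 8c, with list medians of -4.91 to -3.32 in 2c, -7.09 to -5.74 in 4c and -7.48 to -5.55 in 8c. These counts give no support, since the filter (well above background on at least 5 arrays) let markers in through the 2c arrays where they are high: Cd163 and Lrat were well above background on 5 of 5 2c arrays and on 0 of the 4c and 8c arrays. The lowest signal among probes well above background lay between -6.79 and -5.49 across the arrays, and list medians below it have no order. Of 7 cholangiocyte markers 2 were tested: Epcam fell from 2c to 8c (log2 difference -0.79, SE 0.12, limma adjusted p = 0.00775) and from 2c to 4c (-0.61, SE 0.12, limma adjusted p = 0.043), each in all 5 experiments, while Sox9 gave 0.05 and -0.08 and did not pass. The biliary markers Krt19 and Krt7 and the lymphocyte markers Cd3e and Cd2 were well above background on 0 arrays. Pancreatic acinar transcripts were abundant on 6 arrays (2c and 8c of experiment 1, all 3 of experiment 2 and 8c of experiment 3). The list median of the 24 tested acinar genes of 26 ranged from -8.26 to 4.85 in 2c, from -8.18 to 1.51 in 4c and from -8.24 to 3.70 in 8c. Arrays lay on 2 slides, slide 1 with experiments 1 and 2 and, of experiment 3, its 2c and 4c arrays, and slide 2 with the rest.

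Of 19 tested enzymes of cholesterol synthesis, 8 were lower in 8c than in 2c hepatocytes, namely Msmo1, Acat2, Sqle, Mvd, Hmgcs1, Sc5d, Hsd17b7 and Tm7sf2, by 1.24-fold to 1.59-fold. The other 11 did not pass, and 0 rose. None of the 6 regulation genes passed in either direction, so 8 of all 25 tested genes were lower. Among all 17040 features 1.53% passed as lower and 0.816% as higher. That split of 261 lower and 139 higher became 189 and 225 with each array scaled over all probes, 213 and 187 scaled to the median and 200 and 179 after quantile normalization. All 19 enzymes had a fitted difference below 0 (18 under 3 other scalings, where Ggps1 lay above 0), with a median of -0.35 on the log2 scale, against a median of -0.02 over all features. The falling enzymes sit at the start of the pathway (Acat2, Hmgcs1), at the end of its mevalonate stretch (Mvd), at the entry to sterols (Sqle) and among the steps that trim lanosterol to cholesterol (Tm7sf2, Msmo1, Hsd17b7, Sc5d). The plot of levels in the sorted fractions shows each experiment as 1 line.

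**Figure D1:**
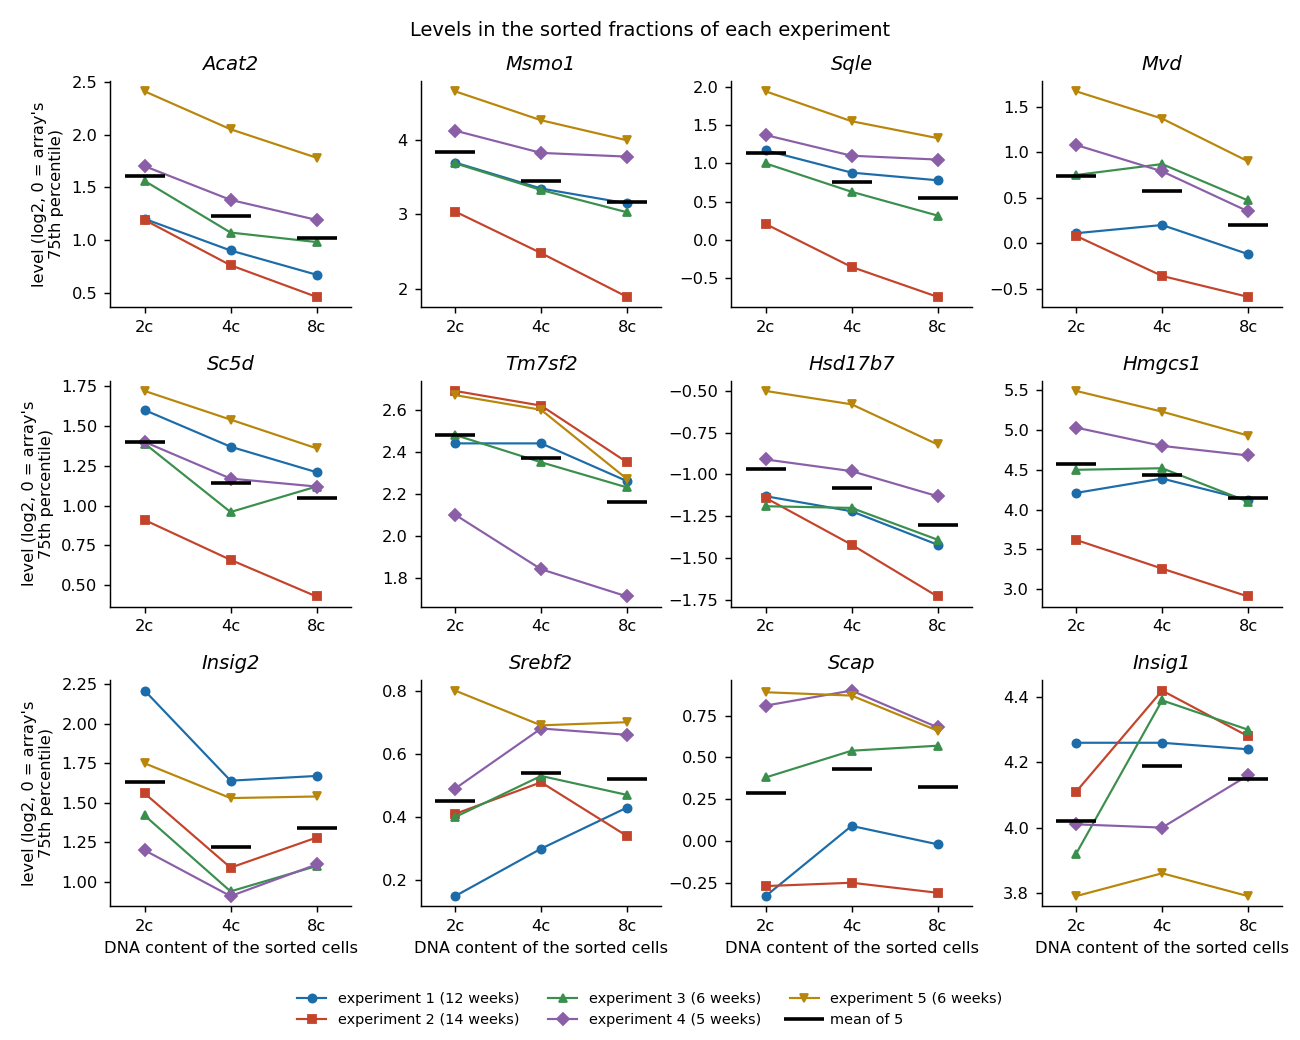
Levels (log2, 0 is the array's 75th percentile) of the 8 enzymes that passed in 8c against 2c and of 4 regulation genes, plotted against DNA content, with 1 line per experiment and a black bar for the mean of 5 arrays. For each of the 8 enzymes every line ends lower in 8c than it starts in 2c, while the experiments lie far apart; Srebf2, Scap and Insig1 have lines that go up and down.

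Acat2, the cytosolic thiolase that joins 2 acetyl-CoA units in the first step, had levels of 1.20, 1.19, 1.56, 1.70 and 2.41 in the 2c fractions of experiments 1 to 5. The 4c fractions gave 0.90, 0.76, 1.07, 1.38 and 2.05, and the 8c fractions gave 0.67, 0.46, 0.98, 1.19 and 1.78. In each experiment the order was 2c, 4c, 8c from high to low, although the groups overlapped because experiment 5 lay above the others in every fraction. The 8c level was lower than the 2c level by 1.51-fold (log2 difference -0.60, SE 0.06, limma adjusted p = 0.0013), with -0.53, -0.73, -0.58, -0.51 and -0.63 in experiments 1 to 5. Acat2 had 5 probes on the array that did not all move alike: the second brightest gave a mean difference of -0.49, a pair of dimmer ones, the first of which the files place on chromosome 11, gave -0.27 and -0.12, and the fifth was well above background on 0 arrays.

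Hmgcs1 encodes the cytosolic synthase that makes HMG-CoA, the next intermediate. Its levels were 4.21, 3.62, 4.50, 5.03 and 5.49 in 2c, then 4.39, 3.26, 4.52, 4.80 and 5.23 in 4c, and 4.12, 2.91, 4.10, 4.68 and 4.93 in 8c, in the order of the experiments. The 8c fraction was below the 2c fraction in all 5 experiments, by as little as 0.08 in experiment 1 and as much as 0.71 in experiment 2. The fitted fall was 1.34-fold (log2 difference -0.42, SE 0.09, limma adjusted p = 0.0467), close to the threshold.

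Mvd, the decarboxylase that yields isopentenyl diphosphate, stood at 0.11, 0.08, 0.75, 1.08 and 1.67 in 2c, at 0.20, -0.36, 0.87, 0.79 and 1.37 in 4c, and at -0.12, -0.59, 0.47, 0.35 and 0.90 in 8c. The 8c value was the lowest of its experiment each time, while 4c lay above 2c in experiments 1 and 3. The fall from 2c to 8c was 1.45-fold (log2 difference -0.54, SE 0.10, limma adjusted p = 0.0214). The neighbouring kinases of mevalonate, Mvk and Pmvk, did not pass, with log2 differences of -0.29 (SE 0.10, limma adjusted p = 0.205) and -0.28 (SE 0.18, limma adjusted p = 0.529).

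Isoprenoid diphosphates are made and joined by Idi1, Fdps and Ggps1, and Fdft1 commits them to squalene. None of these passed in 8c against 2c. Idi1, the isomerase, had group means of 1.91 in 2c, 1.81 in 4c and 1.50 in 8c, but its 8c value was higher than its 2c value in experiments 1 and 4 (95% interval of the difference -0.74 to -0.09, limma adjusted p = 0.221). Fdps, the farnesyl diphosphate synthase, had group means of 3.80, 3.53 and 3.50 and was lower in 8c in all 5 experiments, with an adjusted p of 0.321 in limma. Ggps1, which diverts farnesyl diphosphate towards protein prenylation, had a difference of -0.01 (95% interval -0.28 to 0.25), and Fdft1, squalene synthase, one of -0.11 (95% interval -0.27 to 0.05).

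Sqle, the squalene epoxidase and the first oxygen-using step, had 2c levels of 1.17, 0.21, 1.0, 1.37 and 1.94 in experiments 1 to 5. Its 4c levels were 0.88, -0.35, 0.63, 1.1 and 1.55, and its 8c levels 0.78, -0.74, 0.32, 1.05 and 1.33. Every experiment went down from 2c to 4c and from 4c to 8c, and experiment 2 lay lowest in each fraction. The fall from 2c to 8c was 1.51-fold (log2 difference -0.59, SE 0.09, limma adjusted p = 0.00708), and a second Sqle probe gave a mean difference of -0.68. Lss, which closes squalene epoxide into lanosterol, missed the threshold at -0.40 (SE 0.09, limma adjusted p = 0.0552) although it was lower in 8c in all 5 experiments.

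Msmo1, the methylsterol monooxygenase that takes part in the removal of methyl groups from the sterol ring, had the largest fitted fall of the 25 genes. Its levels in experiments 1 to 5 were 3.70, 3.04, 3.69, 4.13 and 4.66 in 2c, 3.35, 2.48, 3.33, 3.83 and 4.27 in 4c, and 3.15, 1.89, 3.03, 3.78 and 4.00 in 8c. The levels fell stepwise in each experiment, and the span between experiments was wider than that between fractions. From 2c to 8c the level fell 1.59-fold (log2 difference -0.67, SE 0.10, limma adjusted p = 0.00704), most in experiment 2 (-1.14) and least in experiment 4 (-0.35). Its 1 probe lies at chr16:26716174-26716233 of the rn4 assembly named in the files, and the probe used for Acat2 at chr1:41939864-41939923; the part of the gene under them was not looked up.

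Hsd17b7, the ketoreductase that completes the same demethylation, had 2c levels of -1.13, -1.14, -1.19, -0.91 and -0.50, 4c levels of -1.22, -1.42, -1.20, -0.98 and -0.58, and 8c levels of -1.42, -1.73, -1.39, -1.13 and -0.82. Its 4c and 2c levels lay within 0.09 of each other except in experiment 2, and 8c was lowest in all 5 experiments (log2 difference from 2c -0.33, SE 0.07, limma adjusted p = 0.0346). Nsdhl, the dehydrogenase between Msmo1 and Hsd17b7, was also lower in 8c in every experiment, but only by 0.07 to 0.18, and did not pass (log2 difference -0.12, limma adjusted p = 0.318). A second Nsdhl probe gave a mean difference of -0.37, so its probes differed in size.

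Tm7sf2, a sterol reductase of the endoplasmic reticulum, stood at 2.44, 2.69, 2.48, 2.10 and 2.67 in 2c, 2.44, 2.62, 2.35, 1.84 and 2.60 in 4c and 2.26, 2.35, 2.23, 1.71 and 2.27 in 8c. The drop came mainly between 4c and 8c in experiments 1, 2 and 5, and experiment 4 was lowest in every fraction (8c against 2c log2 difference -0.31, SE 0.06, limma adjusted p = 0.0294). Sc5d, the desaturase that makes a late sterol intermediate, had 2c levels of 1.60, 0.91, 1.39, 1.40 and 1.72, 4c levels of 1.37, 0.66, 0.96, 1.17 and 1.54, and 8c levels of 1.21, 0.43, 1.12, 1.12 and 1.36. All 5 experiments showed 2c as the highest fraction (8c against 2c log2 difference -0.35, SE 0.07, limma adjusted p = 0.0269). Its second probe gave a mean difference of -0.24 and was lower in 8c in 3 of 5 experiments, and with the probes of each gene averaged Sc5d did not pass (-0.30, limma adjusted p = 0.265). Cyp51, the lanosterol demethylase, and Dhcr7, a terminal reductase, were lower in 8c in all 5 experiments and missed the threshold, with log2 differences of -0.39 (limma adjusted p = 0.0628) and -0.37 (limma adjusted p = 0.0552). Ebp, the sterol isomerase, differed by -0.13 (95% interval -0.29 to 0.03).

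Further probes were read as a check within the array. Several tested probes existed for 11 genes, and 12 of their 14 further probes had the same sign of the 8c minus 2c difference as the probe used. Second probes of Idi1, Cyp51 and Lss gave mean differences of -0.56, -0.41 and -0.37, beside -0.41, -0.39 and -0.40 for the probes used. The Lss probes lie at the same place. A dim further probe of Ggps1 (0.13) and the second Insig1 probe (-0.06) had the opposite sign.

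None of the 6 tested genes of SREBP2 regulation passed in 8c against 2c. Srebf2, which encodes SREBP2 itself, had levels of 0.15, 0.41, 0.40, 0.49 and 0.80 in the 2c fractions of experiments 1 to 5, of 0.30, 0.51, 0.53, 0.68 and 0.69 in 4c, and of 0.43, 0.34, 0.47, 0.66 and 0.70 in 8c. It was lower in 8c than in 2c in 2 experiments and higher in the other three. The log2 difference was 0.07 with a 95% interval of -0.09 to 0.23 (limma adjusted p = 0.711), so an mRNA change of the size seen for Msmo1 lay outside the interval.

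Scap, the sterol-sensing escort of SREBP2, stood at -0.33, -0.27, 0.38, 0.81 and 0.89 in 2c, 0.09, -0.25, 0.54, 0.90 and 0.87 in 4c and -0.02, -0.31, 0.57, 0.68 and 0.66 in 8c. The experiments separated by more than 1 log2 unit while the fractions of an experiment differed by less (8c against 2c 0.02, 95% interval -0.17 to 0.21, limma adjusted p = 0.939). Insig1, a retention protein whose gene is itself a target of SREBP2, had levels of 4.26, 4.11, 3.92, 4.01 and 3.79 in 2c, 4.26, 4.42, 4.39, 4.00 and 3.86 in 4c, and 4.24, 4.28, 4.30, 4.16 and 3.79 in 8c. In 8c it was higher than in 2c in experiments 2, 3 and 4 and within 0.02 of it in the others. Its fitted difference of 0.14 had a 95% interval of -0.05 to 0.32 (limma adjusted p = 0.491), which did not reach the falls of the enzymes.

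Insig2, the second retention protein, followed another course. Its levels were 2.21, 1.56, 1.42, 1.20 and 1.75 in 2c, 1.64, 1.09, 0.94, 0.91 and 1.53 in 4c, and 1.67, 1.28, 1.1, 1.11 and 1.54 in 8c. In all 5 experiments 2c was highest and 4c was lowest, though the 4c and 8c values of experiments 1 and 5 lay within 0.03. It fell 1.32-fold from 2c to 4c (log2 difference -0.41, SE 0.08, limma adjusted p = 0.0389). The difference from 2c to 8c was -0.29 (95% interval -0.46 to -0.12, limma adjusted p = 0.0821) and did not pass.

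Sterol handling downstream of synthesis is represented by Stard4, a protein that moves cholesterol between membranes, and Soat2, which esterifies it. Stard4 had levels of 0.87, 0.78, 0.48, 0.62 and 0.84 in 2c, 0.90, 0.48, 0.57, 0.52 and 0.69 in 4c and 0.89, 0.42, 0.39, 0.64 and 0.73 in 8c, with groups that overlapped (8c against 2c -0.10, 95% interval -0.27 to 0.07, limma adjusted p = 0.587). Its second, much dimmer probe gave a mean difference of -0.50. Soat2 stood at -1.30, -2.11, -2.23, -0.87 and -1.92 in 2c, -1.44, -2.44, -2.53, -1.27 and -1.37 in 4c and -1.61, -2.0, -1.57, -1.65 and -1.77 in 8c. The 2c and 4c values of Soat2 spread over more than 1 log2 unit, and the difference of -0.03 was imprecise (95% interval -0.50 to 0.43, limma adjusted p = 0.963).

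**Figure D2:**
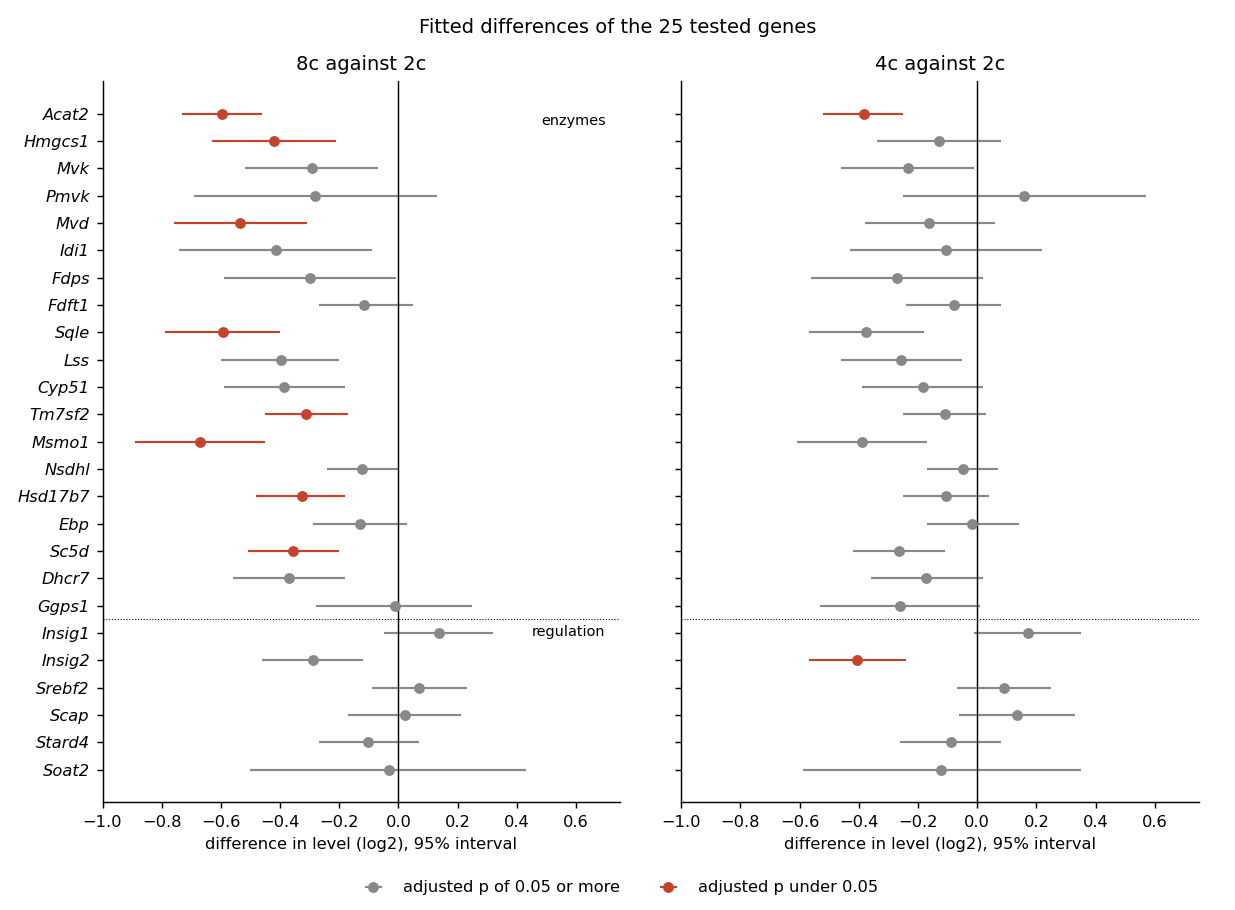
Fitted log2 differences (points) with 95% intervals (bars) of the 25 tested genes for 8c against 2c (left) and 4c against 2c (right), enzymes above the dotted line in pathway order and regulation genes below it. Red marks an adjusted p under 0.05: 8 enzymes on the left, and Acat2 and Insig2 on the right.

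The number of enzymes called lower in 8c depended on the scaling, the filter, the block and the experiments included. Against the 8 calls reported, scaling to the median gave 4, scaling to the 75th percentile over all probes 3, no filter on dim probes 3, normexp background correction 5 and no experiment block 0. Without experiment 5 the 8 calls became 1 (Acat2), and without another experiment 3 to 5. Leaving out single arrays gave 3 to 5 calls, except 8 without the 2c array of experiment 1, 6 without the 4c array of experiment 5 and 10 without the 4c array of experiment 3. Within slide 1 and within slide 2, 0 members passed, with enzyme medians of -0.40 and -0.39. Without the 6 arrays that carry acinar transcripts, 0 members and 0 of all features passed (1217 features at an unadjusted p under 0.05), the enzyme median was -0.39, and Acat2, Msmo1 and Sqle gave -0.59, -0.50 and -0.47. The lower levels of Epcam and of the Kupffer, stellate and endothelial markers, given above, were found in the same comparison of 8c with 2c. Their part in the enzyme result, and whether they moved with the enzymes from experiment to experiment, was not tested. Of the pericentral hepatocyte markers 7 of 9 tested were lower in 8c (median -1.19, list median level 2.73 to 3.40 in 2c, 1.18 to 2.56 in 4c and -0.12 to 2.31 in 8c). Of the periportal markers 4 of 10 were higher (median 0.31). Of 13 tested markers of G2 and mitosis 11 were higher in 8c (median 2.82), against 0.816% of all features. That count gives no support, since the filter let some of them in through the 8c arrays where they are high. Ect2, for example, was well above background on 5 of the 8c arrays, 2 of the 2c arrays and 1 of the 4c arrays. The part of any of these markers in the enzyme result was not tested.

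In 4c against 2c hepatocytes, 2 of the 25 genes fell, Acat2 and Insig2, and 0 rose. Of all features 0.998% passed as lower and 0.264% as higher, a split of 170 and 45 that became 107 and 70 with each array scaled over all probes. Acat2 was lower in 4c in all 5 experiments, by 1.30-fold (log2 difference -0.38, SE 0.06, limma adjusted p = 0.0275). The 19 enzymes had a median difference of -0.17, against -0.03 over all features, and 18 of them lay below 0, with Pmvk (0.16) as the exception. Msmo1 and Sqle showed -0.39 and -0.38 and did not pass (limma adjusted p = 0.0936 and 0.0749), although 4c was lower in all 5 experiments for both. Without experiment 1, 2, 3 or 5 neither Acat2 nor Insig2 passed, and without experiment 4 only Acat2 did. Leaving out single arrays gave 2 calls without the 8c array of experiment 1, 2 or 4, 3 without the 2c array of experiment 4, 1 without the 2c array of experiment 1 or the 8c array of experiment 3, and 0 without any other array.

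In 8c against 4c hepatocytes none of the 25 genes passed in limma (lowest adjusted p = 0.266, for Mvd). At an unadjusted limma p under 0.05, 9 of them were lower and 0 higher, against 539 lower and 785 higher of all 17040 features. Among all features 0.0117% passed as lower and 0.646% as higher, so few falls were called anywhere. The enzyme median was -0.20, against a median of 0.00 over all features, and 18 of 19 enzymes lay below 0, Ggps1 (0.25) being above. Mvd differed by -0.37 (95% interval -0.60 to -0.15) and Hmgcs1 by -0.29 (95% interval -0.50 to -0.08).

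Counted by experiment, 14 of the 25 genes had their 8c level below their 2c level in all 5 experiments, 13 of them enzymes and the other being Insig2, against 7.96% of all features. For 4c against 2c the count was 10 of 25 (9 enzymes and Insig2), against 8.61% of features. From 4c to 8c, 11 of 25 were lower in all 5 experiments, all of them enzymes, against 4.68% of features. Group means descended from 2c through 4c to 8c for 17 of 19 enzymes and for 1 of 6 regulation genes, Stard4, against 20.3% of features. The enzymes without this order were Pmvk, highest in 4c, and Ggps1, lowest in 4c. These 3 comparisons share their arrays, so the counts are not independent of each other.

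Levels of most genes differed more between experiments than between fractions. The shares below are not adjusted for there being 5 experiments and only 3 fractions. The experiment accounted for a median of 81.5% of an enzyme's sum of squares over the 15 arrays (35.8% for Ggps1 to 96.0% for Nsdhl), and the DNA content for 12.6% (3.3% to 26.9%). For Acat2 the DNA content accounted for 22.8% and the rest of the spread for 0.7%, and for Scap the experiment accounted for 94.4%. Averaged over the fractions, 17 of 19 enzymes were highest in experiment 5, against 14.0% of all features, and 13 were lowest in experiment 2, against 23.4%. Hmgcs1 had experiment means of 4.24, 3.26, 4.37, 4.84 and 5.22, and Sqle of 0.94, -0.29, 0.65, 1.18 and 1.61. Insig1 ran the other way at the top, being lowest in experiment 5 (3.81) and highest in experiment 2 (4.27). Tm7sf2 was highest in experiment 2 (2.55) and lowest in experiment 4 (1.88).

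**Figure D3:**
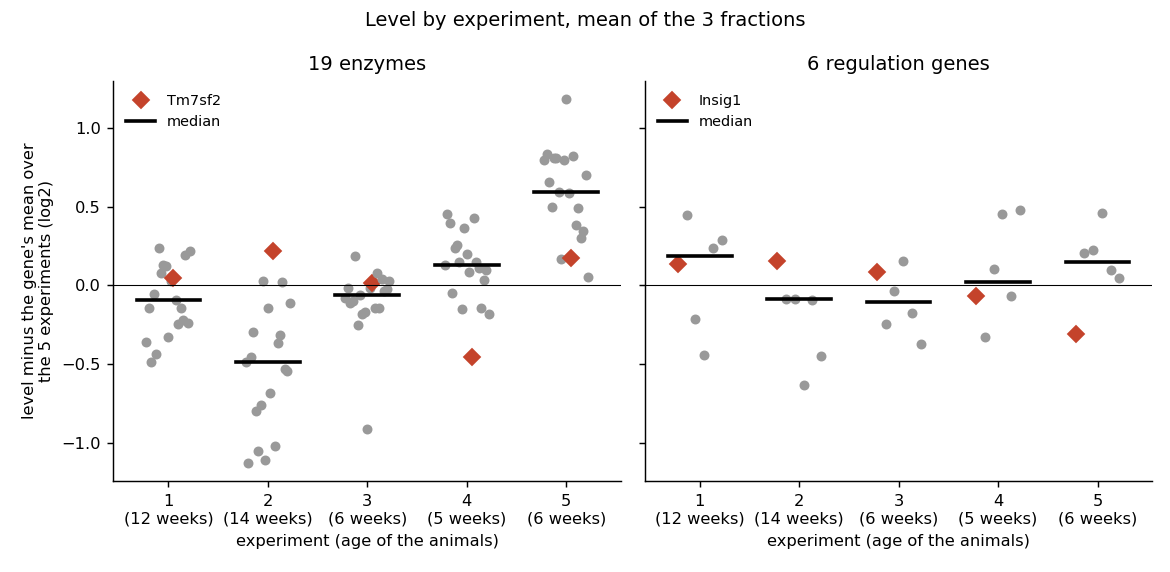
Level of each gene minus its own mean over the 5 experiments (log2), each point being the mean of the 3 fractions of 1 experiment, for 19 enzymes (left) and 6 regulation genes (right), with black bars at the medians. Of the 19 enzymes 17 lie highest in experiment 5 and 13 lie lowest in experiment 2. Red diamonds mark Tm7sf2 and Insig1, which are among the genes that do not follow that order.

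Experiment 2 held the oldest rats (14 weeks), all its arrays carried acinar transcripts and it lay on slide 1, while experiment 5 (6 weeks) lay on slide 2, so age, slide and experiment cannot be told apart here. Whether the difference between 8c and 2c depends on age was tested as an interaction in limma. None of the 25 genes passed (adjusted p 0.958 to 0.999), with slopes of -0.05 to 0.06 log2 units per week. Of all 17040 features 0 passed, 821 had an unadjusted p under 0.05, and none of the 25 genes was among these. By experiment the enzyme median of 8c minus 2c was -0.15, -0.56, -0.27, -0.34 and -0.42.

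Genes linked to the pathway were read for comparison. Redox partners that feed electrons to its oxidative steps or scaffold them (Por, the cytochrome b5 genes Cyb5a and Cyb5b, Cyb5r3, Erg28 and Pgrmc1) had 0 of 6 passing in any comparison and a median of -0.13 in 8c against 2c. Cyb5a gave -0.00 (SE 0.08, limma adjusted p = 0.988). Genes of SREBP processing and sterol sensing in the endoplasmic reticulum had 9 of 11 tested, with a median of 0.04. Of these 1 was lower in 8c against 2c, Tmem97, a membrane protein that binds the cholesterol transporter NPC1 (log2 difference -0.41, SE 0.09, limma adjusted p = 0.0406, lower in all 5 experiments). Faf2, which helps to draw ubiquitinated proteins out of the membrane, was higher in 4c against 2c (0.36, SE 0.07, limma adjusted p = 0.0459). The isoprenoid branches towards dolichol, ubiquinone and prenylated proteins had 10 of 11 genes tested, a median of 0.02 in 8c against 2c and 0 passing there. In 4c against 2c 1 passed, Icmt, the methyltransferase of prenylated proteins, which was higher (0.42, SE 0.08, limma adjusted p = 0.0389).

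Fatty acid synthesis shares the SREBP family of regulators, with SREBP1 in the leading role. None of the 12 tested lipogenic genes passed in any comparison, and their median was -0.12 in 8c against 2c. Scd, the desaturase of fatty acids, differed by -0.07 (SE 0.08, limma adjusted p = 0.77). Srebf1 differed by 0.09 (SE 0.06, limma adjusted p = 0.562). Acss2, which makes acetyl-CoA from acetate, had -0.61 and was lower in all 5 experiments without passing (limma adjusted p = 0.0654).

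Of the genes of sterol export, storage and turnover, 17 of 19 were tested, with a median of -0.22 in 8c against 2c. Cyp7a1, the rate-limiting enzyme of bile acid synthesis, was lower in 8c by 3.08-fold (log2 difference -1.62, SE 0.28, limma adjusted p = 0.0148), and Nceh1, a cholesterol ester hydrolase, by 2.92-fold (log2 difference -1.55, SE 0.24, limma adjusted p = 0.00926). Both were lower in all 5 experiments. Nceh1 was well above background on 14 of 15 arrays. In 4c against 2c and 8c against 4c 0 of the 17 passed.

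**Figure D4:**
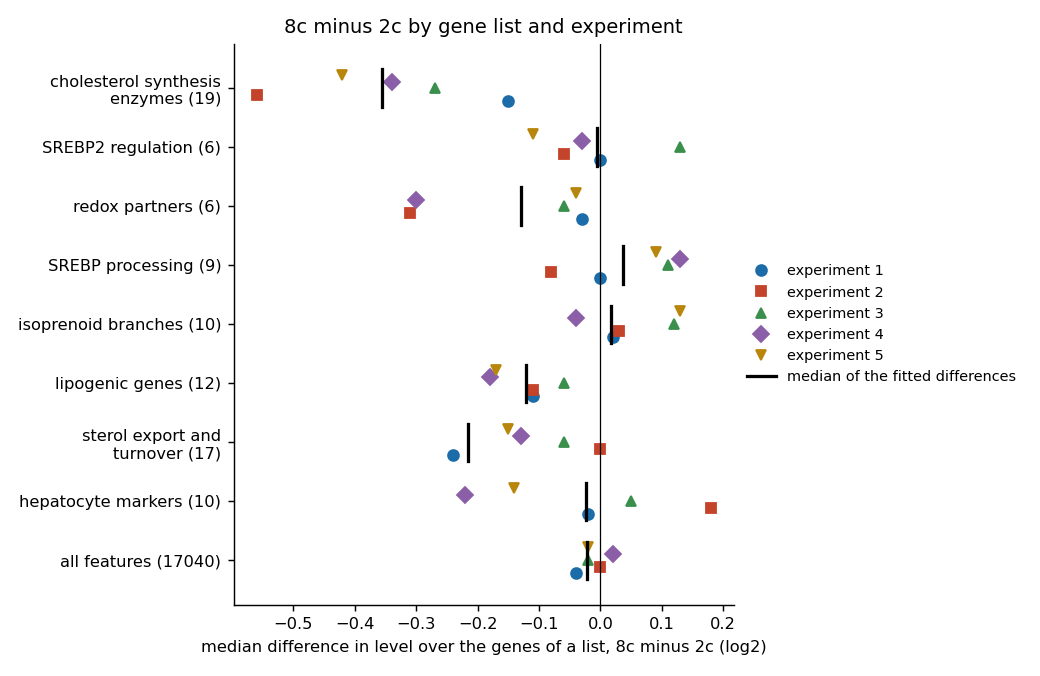
Median difference in level, 8c minus 2c (log2), over the tested genes of each list in each of the 5 experiments (coloured symbols) and over the fitted differences (black bar). The enzymes of cholesterol synthesis lie below 0 in all 5 experiments, from -0.56 to -0.15, and the lipogenic, redox partner and sterol export lists also lie at or below 0 in all 5, while the regulation genes, the isoprenoid branches and the hepatocyte markers lie on both sides of 0.

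Promoter sequence is shown for 3 genes that differed in their course: Msmo1, with the largest fall, Acat2, with the lowest adjusted p, and Insig1, an SREBP2 target that did not pass. SREBP2 binds sterol regulatory elements and is known to act beside the factors NF-Y, which binds CCAAT boxes, and Sp1, which binds GC boxes. The 250 bases before the annotated start were taken from RefSeq (GRCr8) and are printed 5′ to 3′ on the strand of the gene, Msmo1 at chr16:29746863-29747112 on the plus strand, Acat2 at chr1:50100590-50100839 on the plus strand and Insig1 at chr4:8057770-8058019 on the minus strand. Capitals mark the letters ATTGG or GGGCGG on either strand, so that CCAAT and CCGCCC also appear.
Msmo1: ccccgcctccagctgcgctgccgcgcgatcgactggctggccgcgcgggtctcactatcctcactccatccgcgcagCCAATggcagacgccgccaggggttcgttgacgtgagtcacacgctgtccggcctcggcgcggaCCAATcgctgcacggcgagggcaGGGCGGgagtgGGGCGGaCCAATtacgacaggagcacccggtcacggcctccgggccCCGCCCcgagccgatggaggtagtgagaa
Acat2: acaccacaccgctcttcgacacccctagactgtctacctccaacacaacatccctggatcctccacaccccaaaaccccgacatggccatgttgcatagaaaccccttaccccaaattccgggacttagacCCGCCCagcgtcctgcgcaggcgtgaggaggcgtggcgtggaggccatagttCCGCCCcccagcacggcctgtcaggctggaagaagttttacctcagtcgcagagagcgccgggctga
Insig1: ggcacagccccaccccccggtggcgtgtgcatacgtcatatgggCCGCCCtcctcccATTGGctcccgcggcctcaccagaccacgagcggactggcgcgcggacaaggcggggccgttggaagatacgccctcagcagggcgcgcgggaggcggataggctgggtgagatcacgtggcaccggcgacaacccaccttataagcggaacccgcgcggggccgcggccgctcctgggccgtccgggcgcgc

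In these stretches Msmo1 held 3 matches to the inverted CCAAT box and 3 to the GC box, Acat2 held 0 and 2, and Insig1 held 1 and 1. Of the 27 genes 22 had a promoter in the table. The letters ATTGG, on either strand, were found in 18 of these 22 (81.8%), against 36.0% of the promoters of tested genes and 34.0% of all promoters of the table. GGGCGG was found in 18 of 22 (81.8%), against 53.4% of tested genes and 30.5% of all promoters. Neither motif contains the other, and 14 promoters held both. TCACNCCAC, the core of a sterol regulatory element, was found in 0 of 22, against 1.09% of tested genes and 0.974% of all promoters, which says only that these letters are not in these 250 bases. Of the 8 enzymes that fell, 7 had a promoter in the table, 6 with ATTGG and 7 with GGGCGG.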

How the data were processed

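RNA of 15 sorted hepatocyte fractions was measured on 1 one-colour array each. Per the file headers, the deposited processed signal is a background-subtracted, spatially detrended intensity on a linear scale from Agilent Feature Extraction 11.5.1.1 (version 10.7.3.1 per the submitters' processing notes), with no normalization between arrays. The deposited value table holds the same intensity, linear and not centred (medians per array 3.85 to 7.8 on the linear scale).

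Control and outlier spots were left out, the spots of a probe averaged, and log2 signals scaled to the 75th percentile of each array among 16194 probes that every array showed well above background. Between 39.5% and 47.3% of probes per array were well above background, and 0 spots were saturated. Probes well above background on at least 5 arrays were tested, the brightest per gene (17040 features). Precision is limited by the number of arrays. Probe positions in the files refer to rn4. limma 3.58.1 in R 4.3.3 (lmFit, eBayes) fitted the fraction with the experiment as a block, since fractions of 1 number come from 1 independent experiment. Fractions of the same experiment deviated together: the correlation of their deviations from the group means had a median of 0.59 over 15 pairs, against -0.13 over 60 pairs of different experiments. Deviations cancel out within a group, so the second value largely follows from the first and is no separate contrast. Tests were two-sided, adjusted after Benjamini and Hochberg over all features, and the procedure was tested on simulated data.

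The genes and lists were chosen with earlier results of these data known. Every gene was accounted for: those that passed in a comparison and the regulation genes are given on every array, others by means, differences or intervals. Of each linked list up to 4 passing genes per comparison were named, or the brightest 1, and Srebf1 and Acss2 were named after their values were seen. The alternatives covered scaling, background correction, filters, probes, the value table, the block, the slide and leaving out arrays.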

Additional observations from a re-analysis of the deposited data

Results flagged for a closer look

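In each group of 5 arrays, the gap between the lowest or highest level and its nearest neighbour was compared with the whole range of the group. Of 75 groups (25 genes in 3 fractions) 4 stood out, all of them in 8c, and chance flags about 1 group in 20. Tm7sf2 had a level of 1.71 on the 8c array of experiment 4, with the other 8c arrays at 2.23 to 2.35. Ebp had 4.71 on the 8c array of experiment 5, with the others at 4.32 to 4.41. Sc5d had 0.43 on the 8c array of experiment 2, with the others at 1.12 to 1.36. Insig1 had 3.79 on the 8c array of experiment 5, with the others at 4.16 to 4.30. For each of the 4 genes the 2c and 4c arrays of the same experiment were the extreme of their fractions on the same side.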

How the results depend on the processing

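The experiment as a block decided the calls: with no replicate block, 0 members passed in 8c against 2c and 0 in 4c against 2c, with 40, 3 and 0 of all features in the 3 comparisons, named here in the order 8c with 2c, 4c with 2c and 8c with 4c (main counts 8 and 2 members, and 400, 215 and 112 features). With the slide as a term and no experiment the counts were 0 and 0 members and 99, 5 and 41 features, and with the replicate block and the slide together 5 and 1 members and 240, 110 and 66 features. Within slide 1 they were 0 and 0 members and 0, 0 and 1 features. Within slide 2, and without the arrays with acinar transcripts, each of these counts was 0, in fits with fewer arrays. In 8c against 4c 0 members passed under every alternative run. Leaving out 1 experiment or 1 array gave 1 to 10 members in 8c against 2c, 0 to 3 in 4c against 2c and 0 in 8c against 4c, and 102 to 526, 0 to 555 and 51 to 144 features.

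Scaling to the median gave 4 and 1 members, scaling to the 75th percentile over all probes 3 and 0, normexp background correction 5 and 1 members with 182, 54 and 64 features, and no filter on dim probes 3 and 0 members with 229 and 0 features in the first 2 comparisons. Only probes well above background on all arrays gave 218, 126 and 40 features. Quantile normalization gave 143 features and the mean of a gene's probes 1 member in 4c against 2c. A trended and robust variance gave 12 members and 546 features in 8c against 2c, and 5 members and 337 features in 4c against 2c. The cause of these moves was not tested. The split of all features in 8c against 2c, 139 higher and 261 lower, was 179 and 200 after quantile normalization, 187 and 213 after scaling to the median, and 225 and 189 after scaling over all probes. No member that passed changed direction under any of 35 alternatives. Of the 8 enzymes, Acat2 passed under 30 of the 35, Msmo1 and Sqle under 29, Mvd under 19, Sc5d under 12, Tm7sf2 under 9, Hmgcs1 under 8 and Hsd17b7 under 6.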
